A study of Mus musculus with 2 samples.

Results

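The cells described here are those richest in transcripts of 6 genes of long-term hematopoietic stem cells, Procr, Ly6a, Sult1a1, Wfdc2, Hlf and Mecom, among cultured mouse stem cells in which no Vwf was detected. For each of the 16922 cells with a deposited Vwf value of 0, the natural log values of the 6 genes were averaged to a stem cell score, and the top 10% over both libraries together were taken. This gave 1693 of the 18560 cells of the series, 738 from the vehicle library and 955 from the DFO library. They are called the high-score cells below, and the 15229 remaining cells without Vwf are called the other cells. Because the members were chosen on these same transcripts, their difference from the other cells is a description and was not tested.

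Lineage-negative, c-Kit+, Sca-1+, CD150+, CD48- cells were sorted from the pooled marrow of 8 wildtype C57/B6 mice aged 6 to 8 weeks. The vehicle group was cultured for 48 h with sterile water, and the DFO group for 48 h with 10 µM deferoxamine, a chelator that binds iron. Both cultures held 100 ng/ml stem cell factor, 50 ng/ml thrombopoietin and Primocin, and 20000 live cells of each went into droplet-based single-cell sequencing of transcript ends with molecular identifiers. Each group has 1 library, so no difference has a replicate check, no p-value is given, and treatment and library cannot be told apart.

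Hematopoietic stem cells sit at the top of blood formation and are mostly quiescent in the marrow; cytokines in culture push them into cycle and toward committed fates. Procr encodes the endothelial protein C receptor and Ly6a encodes Sca-1, surface proteins used to isolate stem cells, while Hlf and Mecom encode transcription factors of stem cells. Sult1a1 encodes a sulfotransferase and Wfdc2 a secreted protein with a whey acidic protein domain. Von Willebrand factor, encoded by Vwf, is a protein of megakaryocytes and platelets that also marks stem cells biased toward that lineage. Iron is needed for heme, for iron-sulfur proteins and for the prolyl hydroxylases that destabilise hypoxia-inducible factors, which is why a chelator is often used to probe these pathways.

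The score had no gap at the threshold. The lowest score of a high-score cell was 0.885086 and the highest score outside was 0.885047. Within 0.05 of the threshold lay 254 high-score cells and 308 other cells, so the set is the upper end of a range and not a separate class. The median score was 1.09 among high-score cells and 0.273 among the other cells, and the highest was 2.44.

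**Figure D1:**
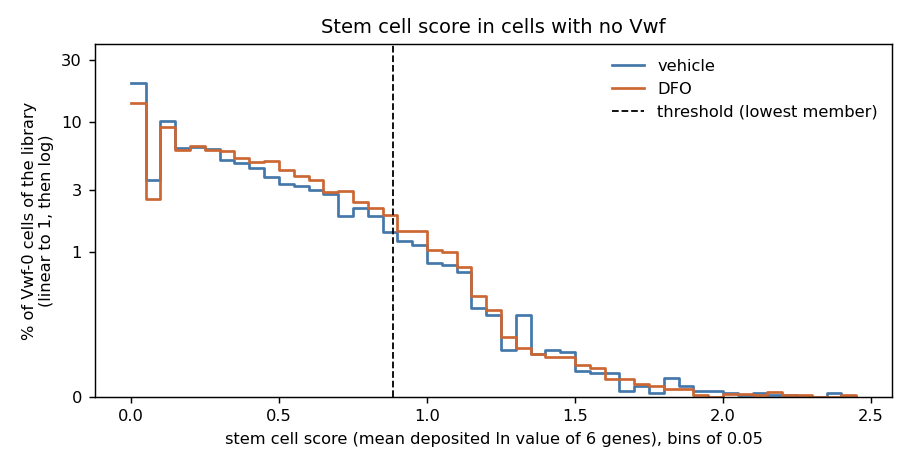
Stem cell score of cells without Vwf, in bins of 0.05 (x axis, mean natural log value of the 6 genes), as a percent of the cells of each library (y axis, linear to 1 and logarithmic above). Both libraries pass without a gap through the dashed threshold at 0.885086, and a smaller share of the DFO library lies in the lowest bin.

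Ly6a and Hlf carried most of the score. Ly6a made up 35.0% of the mean score in the vehicle high-score cells and 36.4% in the DFO ones, and Hlf 27.6% and 27.9%. Both genes were detected in 1659 of the 1693 cells, whereas Procr was detected in 891, and all 6 genes together in 119. The label of cells high in Procr therefore holds for the set as a sum over cells, while 802 of its cells had no Procr molecule.

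Summed over cells and scaled to the total molecules of the same cells and library (CPM, the usual unit of library-scaled counts), Procr was at 35.3 CPM in the vehicle and 32.8 CPM in the DFO high-score cells, against 2.41 and 2.93 CPM in the other cells. Ly6a was at 468 and 486 CPM against 51.9 and 72.8 CPM. Hlf was at 244 and 240 CPM against 51.8 and 56.9 CPM. These 3 genes, which the rule used, differed between high-score and other cells several-fold in each library and by little between the libraries within the high-score cells. The remaining rule genes behaved likewise. Mecom was at 93.4 and 85.5 CPM against 25.8 and 28.0 CPM, and Sult1a1 at 39.5 and 36.0 CPM against 4.08 and 3.29 CPM. Wfdc2 was at 31.1 and 29.3 CPM against 1.80 and 1.63 CPM. In mm10 with the GENCODE M21 annotation, the protein-coding genes Procr and Wfdc2 lie at chr2:155751117-155755471 and chr2:164562413-164568510, Ly6a at chr15:74994877-74998031, Sult1a1 at chr7:126672865-126676432, Hlf at chr11:90336536-90390895 and Mecom at chr3:29951296-30548008.

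Shares of cells with a Procr molecule were 54.6% in the vehicle and 51.1% in the DFO high-score cells and 6.01% and 7.13% in the other cells. As a cell type that should lack Procr, cells with 10 or more molecules of Mpo, the myeloperoxidase of neutrophil precursors, were taken, 36 in the vehicle and 35 in the DFO library. They were drawn from the other cells only. Those cells lie below the threshold of a score that includes Procr, so low Procr in them is partly set by the rule. Procr was detected in 2.78% and 5.71% of them, at median depths of 30516 and 26918 molecules per cell against 24464 and 23762 in the high-score cells. With every cell thinned to 10000 molecules, Procr was detected in 30.1% and 27.2% of high-score cells and in 2.13% and 2.88% of the other cells.

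The high-score cells were shallower than the other cells, whose median depths were 27314.5 molecules in the vehicle and 27180 in the DFO library, but held slightly more genes at equal depth, with medians of 3116 and 3137 genes per 10000 molecules against 3046 and 3070. The median mitochondrial share of molecules was 4.15% and 4.70%, against 3.90% and 4.39% in the other cells. Cells of both sexes were present, and female cells made up 53.8% and 53.9% of the high-score cells and 54.5% and 52.97% of the other cells. No doublet caller was run; cells with molecules of both sexes made up 1.90% and 2.72% of the high-score cells, and 2.12% and 3.22% of the other cells. The libraries had 24 cell barcodes in common, and 5 high-score cells carried such a barcode. Cells of 1 library share its culture and preparation and are not replicates.

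High-score cells made up 9.49% of vehicle cells without Vwf (exact 95% Clopper-Pearson interval 8.85 to 10.2, 738 of 7778) and 10.4% of DFO cells without Vwf (9.82 to 11.1, 955 of 9144). The DFO share was 1.101 times the vehicle share, with a counting interval of 1.005 to 1.206. All such intervals cover counting error only. The denominator also differed, since cells without Vwf were 89.3% of vehicle and 92.8% of DFO cells. Of all cells, high-score cells made up 8.47% in the vehicle and 9.69% in the DFO library. The ratio of 1.101 rested on Ly6a and on the threshold: with the score computed without Ly6a it was 0.9723, and with the top 5% it was 1.001. Ly6a was itself higher under DFO in the other cells, by 0.48 on the log2 scale.

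Against the other cells, the high-score cells were set apart by transcripts outside the rule that included Dlk1, Pdcd1 and Cd53 on the high side and Cd48, Itga2b and Gata1 on the low side. Of 5887 genes at 20 CPM or more, the 6 rule genes not counted, 54 were at least 2-fold higher in each library, 0.917% of the genes, and 37 at least 2-fold lower, 0.629%. All fold values here are on the log2(CPM + 1) scale, which understates the change of low genes. Dlk1, which encodes a membrane protein of the Notch ligand family, was at 24.8 CPM in the vehicle (95% Poisson interval 22.6 to 27.1) and 23.02 CPM in the DFO high-score cells (21.1 to 25.02), against 2.30 and 2.20 CPM. It was detected in 19.9% and 18.1% of the high-score cells and in 3.86% and 3.97% of the other cells, so most high-score cells had no Dlk1 molecule. Pdcd1, which encodes the inhibitory receptor PD-1, was at 31.5 and 24.4 CPM against 4.44 and 4.27 CPM. In the cells with 10 or more Mpo molecules, Dlk1 was at 0 and 0.942 CPM and Pdcd1 at 0.836 and 0.942 CPM.

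Cd53, which encodes a tetraspanin of blood cells, was at 101.4 and 87.9 CPM in the high-score cells against 22.6 and 26.2 CPM. The transcription factor genes Pou2f2 (log2 difference 2.05 in the vehicle and 1.85 in the DFO library) and Fosl2 (2.07 and 1.70) were higher. So were Ltb, which encodes lymphotoxin beta (1.74 and 1.48), the endocytic scaffold gene Itsn1 (1.97 and 1.76), the cell adhesion gene Smagp (1.99 and 1.67) and Ablim1 (1.93 and 1.58), whose product binds actin. Among enzymes, Pnp2, a purine nucleoside phosphorylase, was higher by 2.23 and 1.957, the acyl-CoA thioesterase gene Acot1 by 2.04 and 1.79, and the glutathione S-transferase gene Gstm1 by 1.70 and 1.46. Pnp2 and Acot1 have near-identical copies, Pnp and Acot2, so the division of reads between copies is uncertain.

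The 12 genes lowest in the high-score cells included 4 of the megakaryocyte list, Gp5, Itga2b, Pf4 and Plek. Gp5, which encodes platelet glycoprotein V, was at 1.79 and 1.12 CPM against 31.5 and 20.4 CPM in the other cells. Gata1, the master transcription factor of red cells and megakaryocytes, was at 1.07 and 1.20 CPM against 20.9 and 14.1 CPM. Itga2b, which encodes the integrin CD41, was at 14.7 and 14.0 CPM against 104 and 75.2 CPM. In each case the 95% Poisson intervals of the high-score cells lay far below those of the other cells. Cd48, whose protein was absent from the sorted cells by the gate, was at 20.2 and 17.3 CPM against 122 and 124 CPM, and was detected in 24.4% and 22.8% of high-score cells against 69.7% and 70.3% of the other cells. Alox5 (5-lipoxygenase), Fgf3, Nkg7, Tuba8, the cation transporter gene Slc22a3, Ms4a3 and Plek (pleckstrin) had differences between -3.28 and -1.95 in either library.

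**Figure D2:**
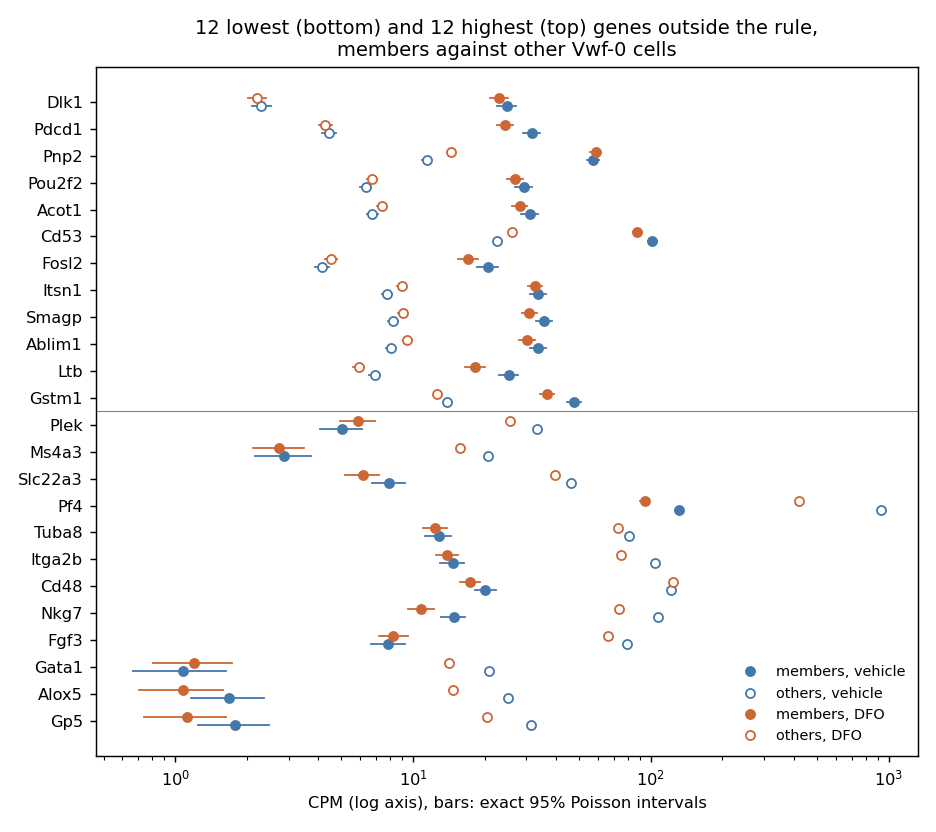
CPM (x axis, logarithmic) of the 12 genes outside the rule that were highest (top) and the 12 lowest (bottom) in high-score cells by the mean of both libraries' differences, with filled points for high-score cells, open points for other cells and bars for exact 95% Poisson intervals. Filled and open points are apart for each gene in both libraries, from 24.8 against 2.30 CPM for Dlk1 to 1.79 against 31.5 CPM for Gp5 in the vehicle library.

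Other markers of stem cells, a list from which the rule genes were left out, were mostly higher in the high-score cells. Of 40 measured genes of this list, 28 were higher in both libraries and 10 lower, with a median log2 difference of 0.46; of all 9053 genes averaging at least 5 CPM, 48.5% were higher in both libraries and 36.3% lower, with a median of 0.03. Fgd5, a guanine nucleotide exchange factor gene used to trace stem cells, was higher by 2.12 in the vehicle and 2.25 in the DFO library, Cd82 by 1.89 and 1.55, Hoxb5 by 1.25 and 1.11, Esam by 1.00 and 0.98, and Mllt3 by 1.04 and 0.93. Kit, which encodes the receptor of stem cell factor, was higher by 0.54 and 0.44. The summed level of the list did not climb steadily with the score. It was 5290 and 5274 CPM in the lowest 20% of cells without Vwf, near the 5650 and 5517 CPM of the high-score cells.

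Not every stem cell marker followed. Slamf1, which encodes CD150 of the sorting gate, was at 5.72 and 6.48 CPM in high-score cells against 13.4 and 11.3 CPM. Gata2 was lower by 0.97 and 0.91 on the log2 scale (differences of -0.97 and -0.91). Meis1 differed by -0.14 and 0.03.

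Markers of multipotent progenitors were divided. Besides Cd48, the kinase gene Cdk6 was at 110 and 115 CPM in the high-score cells against 303 and 268 CPM, and Plac8 at 168 and 167 CPM against 412 and 414 CPM. In the other direction, Flt3, a receptor tyrosine kinase gene of early lymphoid-primed progenitors, was at 22.1 and 21.0 CPM against 8.53 and 8.07 CPM. Notch1 was higher by 1.54 and 1.21. Of 10 measured genes of the list 5 were higher in both libraries and 5 lower, with a median difference of 0.04.

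Megakaryocyte markers were low in the high-score cells beyond the condition on Vwf. Of 16 measured genes 14 were lower in both libraries, and the median difference was -0.96; Selp, which encodes P-selectin, was higher by 1.39 and 1.12. At 10000 molecules per cell, the median cell held 4 molecules of this list in either library, against 7 in vehicle and 5 in DFO other cells. Pf4, which encodes platelet factor 4, was at 132 and 94.3 CPM against 925 and 418 CPM. Pf4 was detected in 78.2% and 65.2% of the high-score cells. Cells with 10 or more Mpo molecules had 348 and 114 CPM of Pf4 and 74.4 and 48.0 CPM of Itga2b, more than the high-score cells in each library, so they give no background level for these genes.

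Markers of other lineages differed gene by gene. Of neutrophil and monocyte genes, Mpo was at 0.919 and 0.125 CPM. It was detected in 0.542% and 0.314% of the high-score cells, and the highest vehicle cell held 15 molecules. Ms4a3 was at 2.86 and 2.74 CPM against 20.6 and 15.8 CPM in the other cells. Prtn3, which encodes proteinase 3, was at 295 and 232 CPM against 163 and 148 CPM in the other cells. Lyz2, which encodes lysozyme, was at 90.2 and 79.9 CPM against 67.0 and 60.9 CPM. The summed level of this list was 410 and 335 CPM against 273 and 247 CPM. Srgn, a proteoglycan gene on the mast cell list, was abundant in both sets, at 935 and 849 CPM in the high-score cells against 935 and 828 CPM, and 5 of the 8 genes of that list in the tables were at 0 in the high-score cells.

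Hbb-bt, an adult beta-globin gene, was at 1376 CPM in the vehicle high-score cells (95% Poisson interval 1360 to 1393) and at 1006 CPM in the DFO ones (994 to 1019), against 476 and 448 CPM in the other cells. The level was higher in each higher band of the score in both libraries, from 226 and 233 CPM in the lowest 20% of cells without Vwf, through 532 and 430 CPM in the middle band, to 928 and 775 CPM in the band just below the threshold. It was detected in 88.9% and 85.4% of high-score cells and in 55.6% and 51.4% of the cells with 10 or more Mpo molecules, where it was at 71.9 and 107 CPM. At 10000 molecules per cell the median high-score cell held 9 Hbb-bt molecules in the vehicle and 5 in the DFO library, against 1 in the other cells of both. Of the 6 measured genes of the erythroid list, 2 were higher in both libraries and 4 lower. The other higher one was Car2, for carbonic anhydrase 2, at 369 and 386 CPM against 353 and 353 CPM. Among the lower ones, Icam4 was at 8.38 and 7.85 CPM against 25.4 and 20.8 CPM. Blvrb, for biliverdin reductase B, was at 42.1 and 41.8 CPM against 58.2 and 47.8 CPM. Tfr2, for transferrin receptor 2, was at 16.6 and 16.7 CPM against 22.2 and 19.5 CPM. Gata1 is given above. Of genes under the 5 CPM minimum, Klf1 was at 0.715 and 0.789 CPM and Epor at 3.37 and 2.33 CPM. The near-identical Hbb-bs was at 3.83 and 3.45 CPM, and the division of reads between the 2 copies is uncertain.

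**Figure D3:**
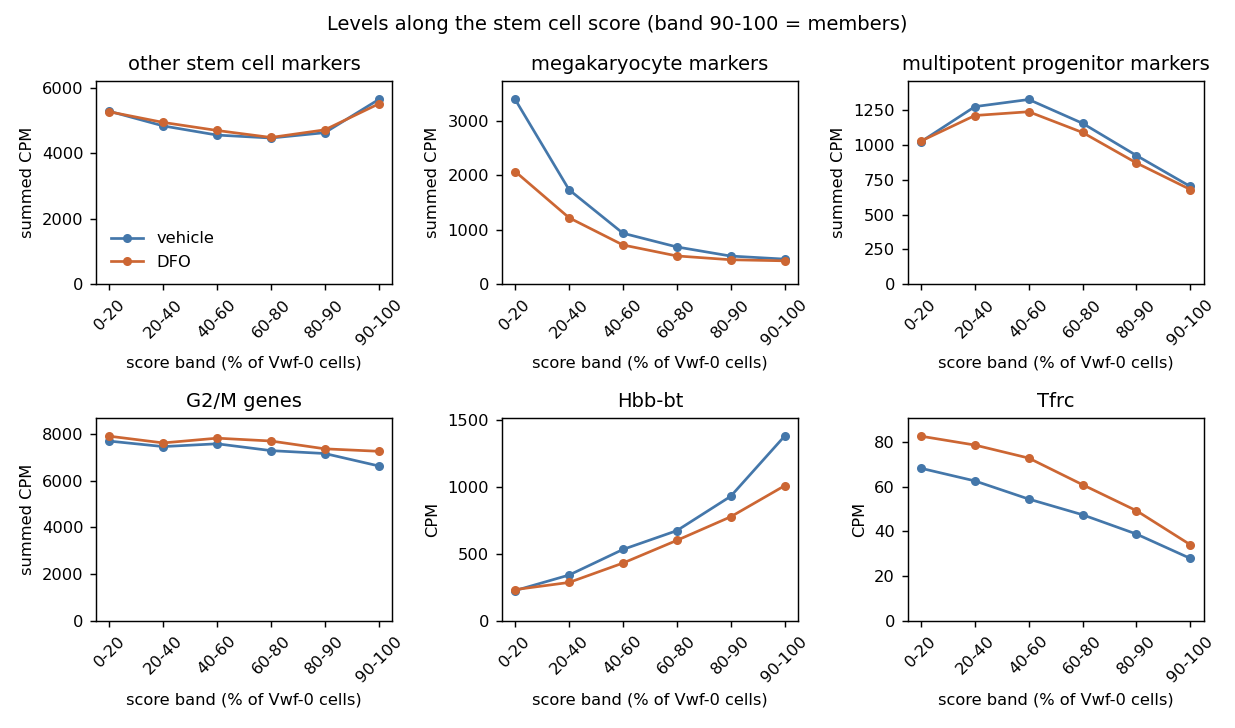
Summed or single-gene CPM (y axes, from 0) in 6 bands of the stem cell score (x axes, percent of cells without Vwf; 90-100 is the high-score cells), by library. Megakaryocyte markers decline steeply over the lower bands, Hbb-bt increases from 226 to 1376 CPM in the vehicle library, Tfrc declines, and the other stem cell markers are highest in the top band after a minimum at 60-80.

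The high-score cells carried fewer cell cycle transcripts per cell, with wide overlap. At 10000 molecules per cell the median number of G2/M transcripts was 44 in vehicle and 52 in DFO high-score cells, against 61 and 64 in the other cells. In the lower 5% of cells the counts were 9 and 11 or fewer, against 16 and 21, while the upper quartiles were 89 and 103 against 97 and 98. Of 39 G2/M genes 27 were lower in both libraries, with a median difference of -0.13, and of 36 S phase genes 28 were lower, with a median of -0.11. Mki67, a marker of cycling cells, was at 263 and 262 CPM against 301 and 286 CPM, and was detected in 69.2% and 68.8% of the thinned high-score cells and 76.6% and 77.6% of the thinned other cells.

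**Figure D4:**
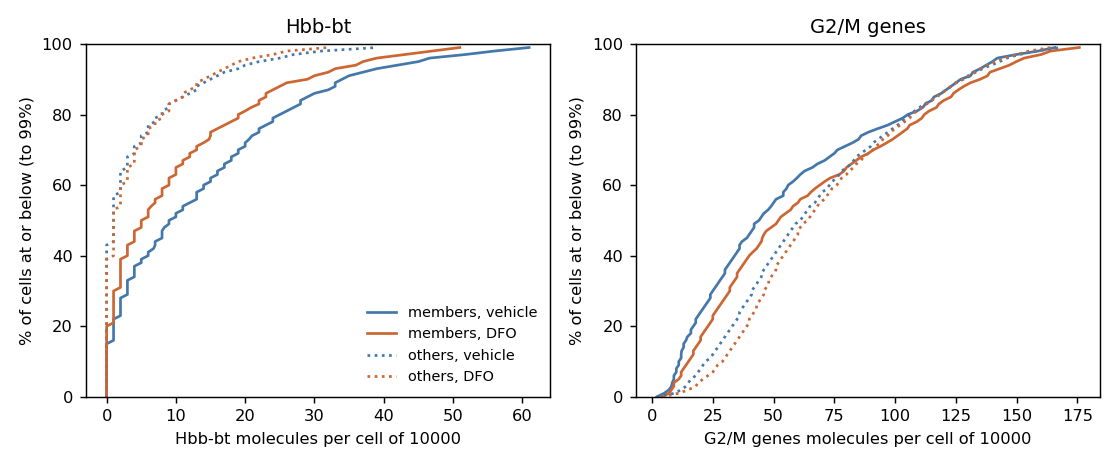
Percent of cells at or below a number of molecules (y axes, to 99%) of Hbb-bt (left) and of the G2/M list (right) per 10000 molecules (x axes), for high-score cells (solid, members) and other cells (dotted) of each library. High-score cells have more Hbb-bt, with medians of 9 and 5 against 1, and a larger fraction with few G2/M transcripts, while the curves lie close together above the upper quartile.

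Growth genes were lower by small amounts. All 32 MYC target genes, most of them for ribosome assembly and translation, were lower in both libraries, with a median difference of -0.21; Srm, for spermidine synthesis, was at 180 and 192 CPM against 241 and 264 CPM. The amino acid stress genes of ATF4 were lower in 15 of 23 (median -0.14). Tfrc, which encodes the transferrin receptor for iron uptake, was at 27.9 and 34.1 CPM against 57.0 and 70.0 CPM. It declined along the score from 68.3 and 82.7 CPM in the lowest band.

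Several groups had mostly higher genes in the high-score cells. Of 23 interferon response genes 20 were higher in both libraries (median 0.32), among them Oasl2 (1.35 and 1.105), Rtp4 (1.18 and 1.09) and Ifi203 (1.02 and 0.98); Ifi203 belongs to a family of near-identical copies. Of 27 lysosome genes 22 were higher (median 0.25). Ctss, which encodes cathepsin S, was at 16.9 and 14.7 CPM against 1.67 and 2.28 CPM, and Ctsl, for cathepsin L, at 53.7 and 54.1 CPM against 28.9 and 28.5 CPM. Of 23 fatty acid oxidation genes 18 were higher, with a median of 0.10 and Acot1 as the highest. The summed level of this list was not higher, at 1602 and 1560 CPM against 1689 and 1562 CPM. The glycolysis list was near even (median -0.01), but its member Ldhb, which encodes the B subunit of lactate dehydrogenase, was at 102 and 92.7 CPM against 33.7 and 37.2 CPM.

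DFO was then compared with vehicle inside the high-score cells. Few genes differed: of 5744 genes at 20 CPM or more, 3 were higher in the DFO library by 0.5 or more on the log2 scale (0.0522% of genes) and 3 lower by as much (0.0522%). Averaging at least 5 CPM were 9206 genes, whose median difference was 0.01 with an SD of 0.13 across genes, and 54.6% of them were above 0 and 45.4% below. In the other cells, which come from the same libraries, 56.6% of the 8834 genes at that level were above 0 and 43.4% below, and 2 genes were higher (0.036%) and 13 lower (0.234%) of 5550.

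The 3 lower genes were Aldoc, Hmox1 and Anxa2. Aldoc, which encodes the glycolytic enzyme aldolase C, was at 20.7 CPM in the vehicle (18.7 to 22.8) and 10.6 CPM in the DFO high-score cells (9.33 to 11.98), a difference of -0.90, and at 13.0 and 8.03 CPM in the other cells, a difference of -0.63. Hmox1, whose product heme oxygenase 1 breaks down heme and releases its iron, was at 20.2 CPM (18.2 to 22.3) and 10.8 CPM (9.53 to 12.2), a difference of -0.84. In the other cells Hmox1 was at 6.00 and 5.43 CPM, a difference of -0.12; the vehicle level was 3.03-fold that of the other cells on the CPM + 1 scale, and the DFO level 1.84-fold. Along the score, Hmox1 was between 4.54 and 7.09 CPM in the lower 4 bands of both libraries, at 9.92 CPM with vehicle and at 6.42 CPM with DFO in the band below the threshold, and highest in the high-score cells. Hmox1 was detected in 28.0% of vehicle and 18.7% of DFO high-score cells, and in 19.4% and 20% of the cells with 10 or more Mpo molecules, where it was at 5.85 CPM (2.35 to 12.1) and 6.59 CPM (2.65 to 13.6). Those levels rest on 7 molecules in each library. Anxa2, which encodes annexin A2, was at 85.8 and 60.4 CPM, a difference of -0.50, and differed by -0.32 in the other cells. For all 3 genes the vehicle and DFO intervals of the high-score cells did not overlap.

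The 3 higher genes were Rpa3, Plscr2 and mt-Nd3. Rpa3, a subunit of the protein that binds single-stranded DNA in replication, was at 44.0 CPM with vehicle and at 65.8 CPM with DFO, a difference of 0.57, and differed by 0.47 in the other cells. Plscr2, a phospholipid scramblase gene, was at 25.1 and 37.6 CPM (0.56, and 0.38 in the other cells). The mitochondrially encoded mt-Nd3, a subunit of respiratory complex I, was at 724 and 1032 CPM (0.51, and 0.56 in the other cells). All 3 were also higher under DFO in the other cells, which share the libraries.

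Below the threshold of 0.5, the next lowest genes were Tyrobp (-0.49), Pigt (-0.48), Pf4 (-0.48), Grhpr (-0.47), Ltb (-0.45), Hbb-bt (-0.45), Ankrd37 (-0.43), Arntl (-0.41) and Slc16a3 (-0.40). Hbb-bt differed by -0.09 in the other cells, and Pf4 by -1.14. By score band, Hbb-bt was at 226 CPM with vehicle and 233 CPM with DFO in the lowest 20% of cells. It was at 928 and 775 CPM in the band just below the threshold, and lower with DFO in each band between. Pf4 differed by -0.98 in the lowest band and -0.57 in the band below the threshold. The libraries filled the bands differently, with 1848 vehicle and 1537 DFO cells in the lowest. Whether this contributes to the -0.09 and -1.14 was not tested. Among the next highest were Gm10076 (0.47), the histone gene Hist1h2ap (0.46), Snhg6 (0.45), the spindle gene Spag5 (0.45), Tdrkh (0.42), Ints3 (0.40), Usp50 (0.37) and Ost4 (0.36). Spag5 was at 18.5 and 25.6 CPM in the high-score cells and at 23.5 and 23.03 CPM in the other cells. Hist1h2ap belongs to a family whose copies share sequence.

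Glycolysis genes were lower together in the DFO high-score cells. Of 17 genes 16 were lower, 14 of them with counting intervals apart, where 4.58% of all genes were lower with intervals apart. Intervals are relatively narrower for abundant genes, so a share over all genes is not a like measure for abundant lists, here or below. The median was -0.21, against -0.12 for the same genes in the other cells, and the summed level was 10981 CPM in the vehicle and 9611 CPM in the DFO high-score cells. Besides Aldoc, the lactate transporter gene Slc16a3 was at 29.7 and 22.4 CPM, and Tpi1, for triosephosphate isomerase, at 595 and 486 CPM (-0.29). Pfkm, for muscle phosphofructokinase, was the exception at 19.8 and 20.6 CPM.

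Genes of the hypoxia response, several of which are also glycolytic, were lower too. Of 23 genes 19 were lower, 8 with intervals apart, with a median of -0.15 against -0.11 in the other cells. Ankrd37 was at 36.1 and 26.5 CPM, the mitophagy gene Bnip3 at 79.1 and 59.9 CPM and the collagen hydroxylase gene P4ha1 at 35.9 and 28.4 CPM. Car9, for carbonic anhydrase 9, was at 4.75 and 5.69 CPM with overlapping intervals. Cholesterol synthesis genes were lower in 17 of 21 (median -0.11; -0.13 in the other cells), with Insig1 at 26.7 and 21.1 CPM.

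Iron handling genes had no common direction, with 8 of 16 higher and 8 lower and a median of -0.01 (0.04 in the other cells). Tfrc was at 27.9 CPM with vehicle (25.6 to 30.4) and at 34.1 CPM with DFO (31.8 to 36.5), a difference of 0.28 against 0.29 in the other cells. The ferritin subunit genes were nearly level, with Fth1 at 3355 and 3246 CPM and Ftl1 at 2675 and 2616 CPM. The poly(C)-binding protein genes Pcbp1 and Pcbp2, whose products also deliver iron to ferritin, were higher by 0.20 and 0.21. Slc40a1, which encodes the iron exporter ferroportin, was at 0.562 and 0.498 CPM, too few molecules to show a difference.

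Mitochondrially encoded genes were higher in the DFO high-score cells in 12 of 13, with 10 having intervals apart and a median of 0.13 (0.15 in the other cells). Of all genes, 7.18% were higher with intervals apart and 4.58% lower. mt-Nd1 was at 1266 and 1562 CPM, and mt-Co3 at 8105 and 9691 CPM. MYC targets were higher in 27 of 32, with intervals apart 16 higher and 3 lower (median 0.08; 0.14 in the other cells), with Bop1, for ribosome assembly, at 45.9 and 54.6 CPM. ATF4 targets had no common direction: 15 of 24 were higher, near the 54.6% of all genes, but with intervals apart 2 were higher and 4 lower (median 0.03; 0.11 in the other cells). Among them were Asns, for asparagine synthesis, at 31.6 and 40.3 CPM and Trib3 at 8.22 and 6.11 CPM.

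Of 39 G2/M genes 31 were higher in the DFO high-score cells, 13 with intervals apart and with none lower with intervals apart; 7.18% of all genes were higher with intervals apart. Their median was 0.07, against a value near 0 in the other cells, where 19 were higher and 20 lower. The high-score median ranged from -0.01 to 0.12 over 19 other settings, and was -0.01 with the score taken from thinned cells. Aurka, for a spindle kinase, was at 53.1 and 66.3 CPM in the high-score cells and at 66.5 and 67.9 CPM in the other cells, and Hmgb2 was at 1102 and 1393 CPM. S phase genes were higher in 28 of 36 (median 0.06; 0.07 in the other cells). The cyclin D1 gene Ccnd1 was at 73.1 and 85.3 CPM, and Cdkn1a, which encodes the cell cycle inhibitor p21, at 49.7 and 42.4 CPM (-0.22; 0.03 in the other cells). Mki67 was at 263 and 262 CPM.

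Stem cell markers outside the rule had no common direction under DFO, with 22 of 42 higher and a median of 0.02. Mycn was at 59.8 and 70.6 CPM and Cd9 at 237 and 269 CPM, while Ltb (25.3 and 18.2 CPM), Cd82 (11.1 and 8.64 CPM) and the CDK inhibitor gene Cdkn1c (7.81 and 5.73 CPM) were lower in the DFO library. Pdcd1 differed by -0.36 (31.5 and 24.4 CPM) and Dlk1 by -0.10. The 6 rule genes, whose level the rule holds up in both libraries, differed by between -0.13 and 0.05.

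Megakaryocyte markers had no common direction under DFO in the high-score cells. Over the 14 genes that averaged at least 5 CPM in high-score cells the median was 0.12, with 8 higher, none with intervals apart, and 6 lower, of which Pf4 and Selp had intervals apart, and over the same genes in the other cells it was -0.32. The summed level was 460 and 428 CPM in the high-score cells and 1653 and 980 CPM in the other cells. The median over each band's own measured genes was -0.35 in the lowest score band and -0.07 in the band below the threshold. In the bands between these it lay between -0.18 and -0.14. The high-score median ranged from -0.07 to 0.12 over 19 other settings, with -0.07 for a score taken from thinned cells and -0.05 for the top 20%, so its sign is not settled. The difference between the sets was not tested.

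**Figure D5:**
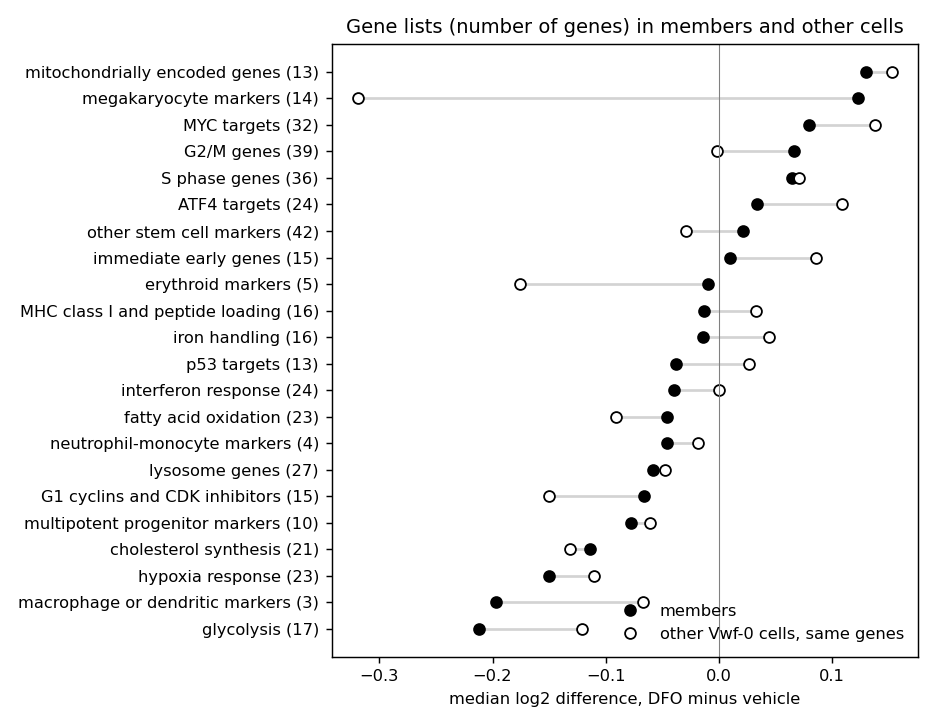
Median log2 difference of DFO minus vehicle (x axis) for each gene list with at least 3 measured genes (number of genes in brackets), in high-score cells (filled, members) and for the same genes in the other cells (open). Glycolysis lies lowest in the high-score cells at -0.21 and mitochondrially encoded genes highest at 0.13, and the 2 points of the megakaryocyte list, at 0.12 and -0.32, lie on either side of 0. The sign of the 0.12 was not the same under all settings.

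The high-score cells with a Procr molecule, 403 in the vehicle and 488 in the DFO library, were set beside those without, 335 and 467. Hbb-bt was at 1371 and 1031 CPM with Procr and 1383 and 977 CPM without, so the lower value in the DFO library was present in both. Hmox1 was at 23.8 and 13.0 CPM with Procr and 15.3 and 8.08 CPM without. Ly6a was at 477 and 494 CPM against 456 and 477 CPM, and Mki67 at 264 and 262 CPM against 262 and 262 CPM. Hlf was at 236 and 231 CPM with Procr and 256 and 250 CPM without. Pdcd1 was at 34.6 and 28.4 CPM with Procr and 27.4 and 19.6 CPM without, and Fgd5 at 15.7 and 17.9 CPM against 12.4 and 13.6 CPM. Sult1a1 was lower with Procr, at 33.7 and 33.8 CPM against 47.3 and 38.7 CPM. The score includes Procr, so a cell without it needed more of the other rule genes to pass the threshold. The values of Sult1a1, Hlf and Ly6a in this split are therefore partly set by the rule, although Ly6a was higher with Procr in both libraries. Other stem cell markers summed to 5809 and 5871 CPM with Procr and 5436 and 5088 CPM without, and G2/M genes to 6878 and 7473 CPM against 6305 and 7003 CPM. Within the set, cells with Procr had more Hmox1, Pdcd1, Fgd5 and G2/M transcripts in both libraries, while Ly6a, Hlf and Mki67 differed little. S phase genes went the other way, at 3444 and 3543 CPM with Procr and 3524 and 3773 CPM without. Detection of Procr depended on depth. It was found in 54.6% of vehicle and 51.1% of DFO high-score cells at full depth. In thinned high-score cells the shares were 30.1% and 27.2%. The split was made at full depth only, so whether depth contributes to its differences was not tested.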

How the data were processed

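For each library the authors deposited a table of natural log values per gene and cell. Per the submitters' processing notes, FastQC 0.11.9, Trim Galore 0.6.5, Cell Ranger 3.0.2 and mm10 were used; for the cell filter and gene annotation, nothing is given in the sources used here. The deposited natural log values equal ln(1 + 27408 × molecules / cell total), and all nonzero values came out whole within 0.05 molecules. Molecules were summed over high-score cells (19580247 vehicle, 24069866 DFO) and other cells (202258452 and 234056230), converted to CPM, and differences taken between log2(CPM + 1) values. Genes entered counts at 20 CPM in at least 1 library and lists at a mean of 5 CPM. Intervals are exact 95% Poisson or Clopper-Pearson intervals for counting error only; no test was possible with 1 library per group. Thinning drew 10000 molecules per cell without replacement (seed 1), leaving out shallower cells. Cells counted as female had at least 5 molecules of Xist without any of the Y-linked genes; those counted as male had at most 1 of Xist and at least 2 Y-linked molecules.

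The members and lists were chosen with earlier results of these data known. Named genes are the 12 highest and 12 lowest in each comparison, fixed stem cell, lineage and iron genes, and the 3 highest and lowest of each list described; Klf1, Epor and Hbb-bs were added after their values were seen, and a few genes are not reported here. Alternatives changed the threshold, score genes, Vwf condition, cells, sex, scaling, pseudocount and minimum. Gene positions came from GENCODE M21. The calculation was tested on simulated data. Python 3.11.15, numpy 2.4.6, scipy 1.17.1, pandas 2.3.3 and matplotlib 3.10.9 were used.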

Additional observations from a re-analysis of the deposited data

How the results depend on the processing

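No paired analysis was possible because each group has 1 library. Depth limits genes below about 5 CPM, and variation between cultures was not measured. The ratio of shares, 1.101, was 1.001 with the top 5% and 0.9723 without Ly6a in the score, and 1.085 to 1.174 under the other 12 settings. The 3 genes higher under DFO became 7 with the top 5%, 14 in male cells, 6 with thinned sums, 1 with pseudocount 10 and 5 at 10 CPM. The 3 lower genes became 6 with the top 5%, 1 with the top 20%, with the top 10% in each library, without Procr, without Sult1a1 or at 50 CPM, 0 without Hlf, 8 in male cells, 5 with means over cells, 9 with thinned sums and 6 at 10 CPM. The 54 genes higher in high-score cells became 100 with the top 5%, 20 with pseudocount 10, 120 at 10 CPM and 25 at 50 CPM, and the 37 lower ones 22 with pseudocount 10 and 17 at 50 CPM. Pseudocounts shrink differences and minimums change the genes counted by construction. Aldoc and Hmox1 were lower by at least 0.5 under all 19 settings, so they left the count only where they fell under the CPM minimum. Both lay just above 20 CPM in the vehicle high-score cells. For the rest the cause was not tested. Some named genes changed sign although their main DFO difference was larger than its counting error. Cd48 did so (0.1875 with the top 5%, 0.1101 with the top 20%). In male cells they were Ablim1 (0.05806), Gtse1 (-0.08211), Nusap1 (-0.01247) and Parp14 (0.1102). In female cells they were Cd68 (0.07903), Exo1 (-0.04563), Srm (-0.007969) and Npc1 (-0.01194). With thinned sums they were Ly6e (-0.009936), Mvd (0.01125), Fdps (0.00331) and H2-M3 (0.03158). With a thinned score it was Nusap1 (-0.07726), and with the top 20% Npm1 (0.00425). Further named genes whose difference lay within counting error also crossed 0, among them Dlk1 (-0.21 to 0.24), Gata1 (-0.40 to 0.29) and Mki67 (-0.11 to 0.15). Aldoc stayed between -1.04 and -0.58, Hmox1 between -1.15 and -0.54, Hbb-bt between -0.58 and -0.30, and the glycolysis median between -0.23 and -0.17 under all 19 settings.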

Other observations

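Some further groups were measured in the high-score cells and are given as values only. p53 target genes differed little under DFO (5 of 13 higher, median -0.04), with the ribosomal protein gene Rps27l at 842 CPM in the vehicle and 887 CPM in the DFO library and Mdm2 at 27.9 and 29.4 CPM. Immediate early genes had a median of 0.01, with Ier3 at 79.6 and 65.1 CPM and Klf6 at 19.5 and 23.5 CPM. Interferon response genes had a median of -0.04 (8 of 24 higher), with Psmb8, an immunoproteasome subunit gene, at 330 and 281 CPM and Irgm1 at 9.04 and 11.9 CPM. MHC class I and peptide loading genes divided evenly, 8 of 16 higher, with H2-T23 at 24.7 and 20.1 CPM.

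Among genes of antigen-presenting cells, Cd74, the invariant chain gene, was at 7.97 and 6.44 CPM in high-score cells against 0.934 and 0.846 CPM in the other cells, and Cd68 at 22.6 and 19.6 CPM against 6.44 and 6.99 CPM, while H2-Ab1 was lower, at 21.2 and 18.6 CPM against 35.9 and 26.5 CPM. Emcn, which encodes endomucin of endothelium and stem cells, was at 20.2 and 20.8 CPM against 6.88 and 8.20 CPM. Of the cells in which Vwf was detected, 186 (11.4%) reached the same score threshold and were left out of the set by the rule.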
